A study of Mus musculus with 10 samples.

Results

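B cells find their place in the spleen through G-protein coupled receptors, and the 10 receptor genes described here are S1pr1, S1pr3, S1pr4, Cnr2, Gpr183, Ccr6, Ccr7, Cxcr4, Cxcr5 and Ackr2. They were taken by name, through their Entrez identifiers, from a table of mRNA molecules per cell that lists 9690 genes, and 10 of 10 were found. The cells were B cells sorted without stimulation from the spleen of female mice (C57BL/6J), labelled knockout or wild-type for the histone demethylase LSD1, which Kdm1a encodes. Marginal zone B cells (MZB) were sorted as B220+ CD23- CD21hi CD1d+ and follicular B cells (FoB) as B220+ CD23+ CD21mid CD1d-, with Thy1.1, F4/80, CD11b, CD93 and GL7 excluded in both sorts. The 10 libraries were 3 of wild-type MZB, 2 of knockout MZB, 2 of wild-type FoB and 3 of knockout FoB, each made from the RNA of 50000 cells. The labels do not give the Cre driver, the deleted exons, the age of the mice and do not tie libraries to animals; p-values therefore reflect the spread of these libraries alone, part of which may be technical.

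The marginal zone lies between the follicle and the blood-filled red pulp, and its B cells are held there, and shuttle to and from the follicle, by opposing signals. Sphingosine 1-phosphate, abundant in blood, acts through S1P receptors and keeps MZB out of the follicle. CXCL13, the ligand of CXCR5, draws B cells into it. CCR7 and its ligands draw cells towards the T zone, CXCL12 acts through CXCR4, oxysterols through EBI2 (the product of Gpr183) move cells to the outer follicle, and the cannabinoid receptor CB2 (the product of Cnr2) helps retain MZB.

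Values are given on 2 scales. The first is mRNA per cell, as the authors deposited it. The libraries summed to 74815.0 to 121070.6 molecules per cell in MZB and to 43561.9 to 56437.7 in FoB, which put the median gene 0.78 higher (log2) in MZB than in FoB among wild-type cells and 0.32 higher in knockout MZB than in their controls. The second scale, called rescaled, divides each library by a factor between 0.624 and 1.761 that sets the libraries to a common level, after which those medians were 0.0 and 0.02. Whole reads could be worked back for 100% of genes, with 4161051 to 6711847 reads per library. Values divide reads by a quantity that followed exon length across genes (Spearman 0.827 over 9537 genes, which are not independent replicates), so levels of different genes may be compared. The targeted gene Kdm1a was below wild type in every knockout library on both scales, but per cell its fall in MZB did not pass. In knockout MZB it stood at 75.0% of the wild-type level per cell (log2 -0.39 ± 0.19, SE, limma adjusted p = 0.118) and at 60.0% rescaled (limma adjusted p = 0.000473). In knockout FoB it stood at 42.5% and 44.3% (limma adjusted p = 4.31e-05 and 2.59e-05). Pan-B-cell markers (Cd79a, Cd79b, Ms4a1 and Pax5) summed to at least 390.02 molecules per cell in every library, and 6 MZB markers (Cr2, Cd1d1, Cd9, Dtx1, Mzb1 and Myof) to 447.6 to 550.3 in wild-type MZB and 59.9 to 79.3 in wild-type FoB. Cr2 and Cd1d1 encode CD21 and CD1d, on which the cells were sorted, so they give no independent check of identity. Cd9, Dtx1, Mzb1 and Myof were also called higher in wild-type MZB on both scales.

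In wild-type cells the 10 receptors covered a wide range of levels. Per cell and averaged over the 3 MZB libraries, the order was S1pr1 at 83.5, Cxcr5 at 67.7, Ccr6 at 22.4, S1pr3 at 22.1, Cnr2 at 22.0, Ackr2 at 15.6, Ccr7 at 8.63, Gpr183 at 6.98, Cxcr4 at 4.40 and S1pr4 at 3.76 molecules. In wild-type FoB (2 libraries) Cxcr5 led with 37.1, followed by S1pr1 and Ccr6 at 18.3 each, Ccr7 at 13.3, Cnr2 at 12.8, Cxcr4 at 10.4, S1pr4 at 8.61 and Gpr183 at 7.53. S1pr3 at 0.451 and Ackr2 at 0.353 came last. S1pr1 thus stood above 98.6% of the genes in the table in wild-type MZB, and S1pr3 stood above 93.6% of them there and above 8.2% in wild-type FoB. Neighbours in these orders that lie close together, such as Ccr6, S1pr3 and Cnr2 in MZB, overlapped between libraries.

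**Figure D1:**
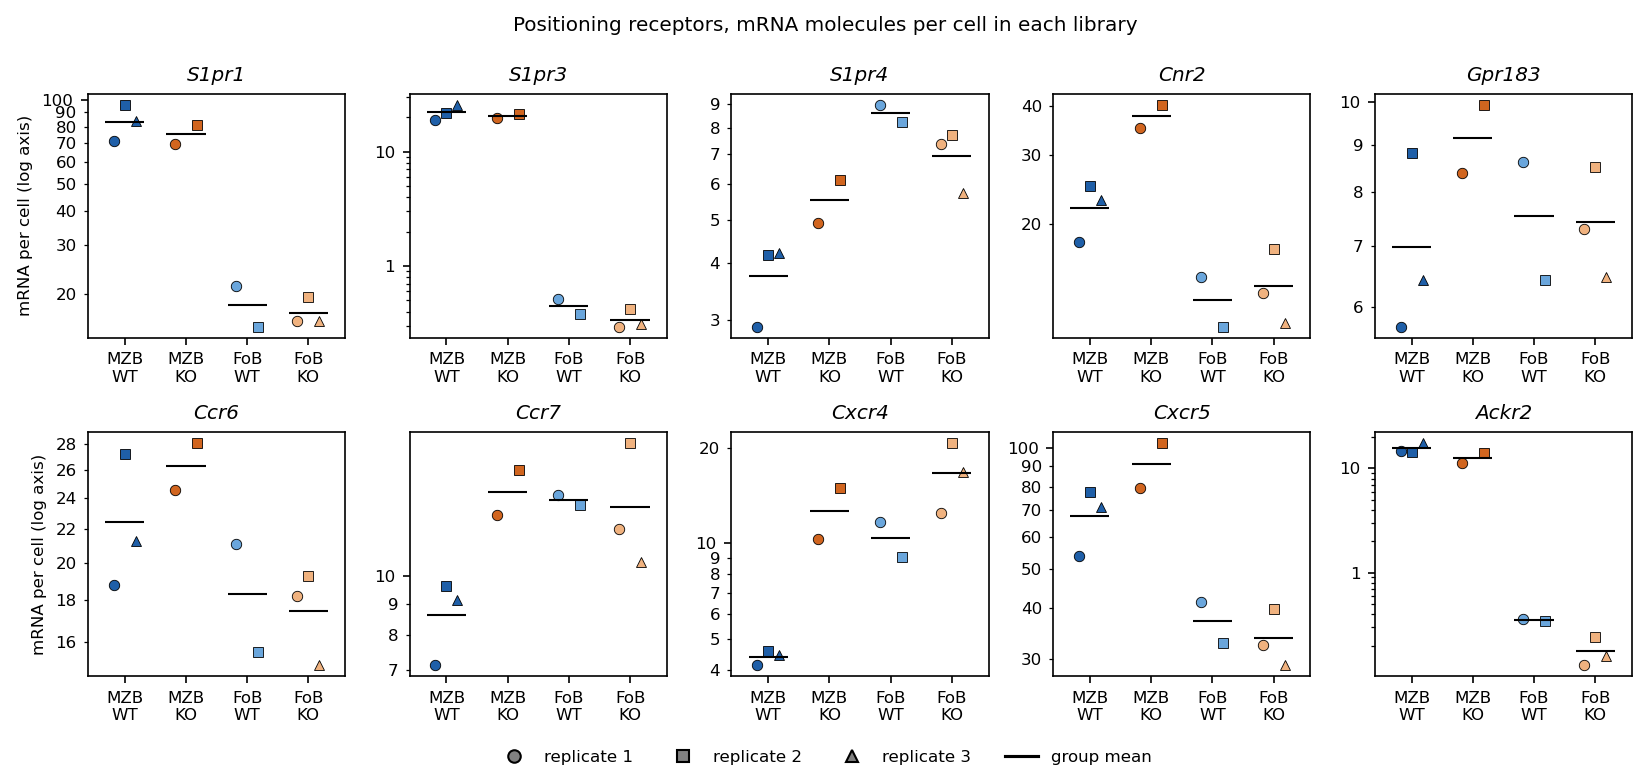
mRNA molecules per cell of the 10 receptors in each library (1 panel per gene, log axis with its own range), by cell type and genotype; the symbol gives the replicate number and the bar the group mean. S1pr3 and Ackr2 drop from over 11 molecules in each MZB library to under 0.6 in each FoB library, and Cxcr4 is lowest in wild-type MZB.

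The first comparison asks how wild-type MZB and FoB differ in these receptors. Per cell, 5 members were higher in MZB (S1pr1, S1pr3, Ackr2, Cnr2 and Cxcr5) and 3 were lower (S1pr4, Ccr7 and Cxcr4), by limma with an adjusted p under 0.05. That call was made for 85.9% of all genes, 84.2% as higher and 1.67% as lower. After rescaling, 3 members were higher (S1pr1, S1pr3 and Ackr2) and 5 lower (S1pr4, Gpr183, Ccr6, Ccr7 and Cxcr4), where 50% of all genes passed, 24.9% as higher and 25.1% as lower. Thus 6 members passed in the same direction on both scales, as 24.9% of genes did as higher and 1.66% as lower. In RNA from sorted pools, more cells with a transcript and more transcript per cell cannot be told apart.

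S1pr1 (Entrez 13609, chr3:115710433-115715055 on mm10, minus strand) encodes the receptor through which lymphocytes sense S1P in blood and lymph, and it is needed to keep MZB in the marginal zone. Its levels were 71.1, 95.8 and 83.6 molecules per cell in the wild-type MZB libraries and 21.4 and 15.3 in the wild-type FoB libraries. The groups were far apart, at a ratio of means of 4.55. On the log2(value + 0.3) scale on which all tests were run, the difference was 2.18 ± 0.21 (SE, limma adjusted p = 1.82e-15), and rescaled it was 1.30 ± 0.07 (limma adjusted p = 1.12e-07).

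S1pr3 (Entrez 13610, chr13:51408618-51422797, plus strand), a second S1P receptor that MZB carry, showed the widest gap of the 10. It stood at 19.0, 21.7 and 25.5 molecules per cell in wild-type MZB, against 0.520 and 0.382 in wild-type FoB, where 81 and 63 reads lay behind these values. The ratio of means was 48.9 per cell and 26.7 rescaled, and the log2 difference, which the pseudocount shrinks for so low a level, was 4.89 ± 0.19 (SE, limma adjusted p = 5.42e-41) per cell. Exons of the long non-coding RNA gene Gm32834 overlap S1pr3 on the other strand, and whether the authors counted by strand is not known from the sources used here. Reads from the overlapping exons of these genes may therefore be mixed in the deposited values.

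Ackr2 (Entrez 59289, chr9:121898355-121911075, plus strand) encodes an atypical receptor, known as D6, that takes up inflammatory CC chemokines and does not signal through G proteins. Its levels were 14.9, 14.3 and 17.6 molecules per cell in wild-type MZB and 0.363 and 0.343 in wild-type FoB, each of the latter from 38 reads. All MZB libraries lay far above both FoB libraries. The ratio of means was 44.1 per cell and 24.0 rescaled, with a log2 difference of 4.60 ± 0.19 (SE, limma adjusted p = 2.43e-39) per cell.

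S1pr4 (Entrez 13611, chr10:81497745-81500137, minus strand, 1 exon), an S1P receptor of lymphoid and blood cells, ran the other way. Its wild-type values were 2.89, 4.16 and 4.21 molecules per cell in MZB and 8.98 and 8.24 in FoB. FoB were thus above MZB even per cell, although the MZB libraries sum to more mRNA. The log2 difference, MZB minus FoB, was -1.15 ± 0.19 (SE, limma adjusted p = 2.23e-07) per cell and -1.99 ± 0.10 (limma adjusted p = 7.89e-08) rescaled.

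Among the chemokine receptors that pass signals to G proteins, Cxcr4 and Ccr7 were the FoB-high pair. Cxcr4 (Entrez 12767, chr1:128588199-128592299, minus strand) stood at 4.15, 4.58 and 4.47 molecules per cell in wild-type MZB and 11.7 and 9.09 in wild-type FoB. The 3 MZB libraries were close to each other and below both FoB libraries, with a log2 difference of -1.18 ± 0.20 (SE, limma adjusted p = 3.28e-07) per cell and -2.02 ± 0.16 rescaled (limma adjusted p = 1.77e-06). Ccr7 (Entrez 12775, chr11:99144199-99155077, minus strand) stood at 7.14, 9.61 and 9.13 molecules per cell in wild-type MZB and 13.6 and 13.1 in wild-type FoB. Here too the groups did not overlap, and the log2 difference was -0.62 ± 0.20 (SE, limma adjusted p = 0.00354) per cell and -1.48 ± 0.11 (limma adjusted p = 1.12e-06) rescaled.

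The other 4 receptors changed their call with the scale. Gpr183 (Entrez 321019, chr14:121952331-121965193, minus strand, inside Ubac2 on the other strand, with no exon in common) stood at 5.72 to 8.81 molecules per cell in wild-type MZB and 6.43 and 8.63 in wild-type FoB. These overlapped per cell (log2 -0.11 ± 0.20, SE, limma adjusted p = 0.584), and rescaled the MZB level was 50.2% of the FoB level (log2 -0.96 ± 0.09, limma adjusted p = 8.40e-06). Ccr6 (Entrez 12458, chr17:8236041-8258519, plus strand), the receptor for CCL20, stood at 18.8 to 27.2 in wild-type MZB and at 15.5 and 21.1 in wild-type FoB. It too overlapped per cell (log2 0.29 ± 0.21, SE, limma adjusted p = 0.178) and was at 66.5% of the FoB level rescaled (log2 -0.58 ± 0.08, limma adjusted p = 0.000142).

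Cnr2 and Cxcr5 showed the reverse dependence on scale. Cnr2 (Entrez 12802, chr4:135895189-135920219, plus strand, 0.63 Mb from Kdm1a) was at 18.0, 25.0 and 23.0 molecules per cell in wild-type MZB against 14.6 and 10.9 in wild-type FoB, a log2 difference of 0.77 ± 0.21 (SE, limma adjusted p = 0.000566). Rescaled, its 3 MZB libraries held 15.9 to 17.0 and the FoB libraries 18.3 and 17.2, a difference of -0.10 ± 0.09 (SE) that did not pass (limma adjusted p = 0.384). Cxcr5 (Entrez 12145, chr9:44511787-44526444, minus strand) held 54.0 to 77.7 molecules per cell in wild-type MZB and 32.7 and 41.4 in wild-type FoB, with a log2 difference of 0.86 ± 0.22 (SE, limma adjusted p = 0.0003), close to the 0.78 of the median gene. Rescaled, its means were 51.1 ± 2.84 (SD, n = 3) for MZB and 51.8 ± 0.244 (SD, n = 2) for FoB, a difference of -0.02 ± 0.08 on the log2 scale (SE, limma adjusted p = 0.846). Exons of Bcl9l overlap Cxcr5 on the other strand, with the same limit as for S1pr3.

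**Figure D2:**
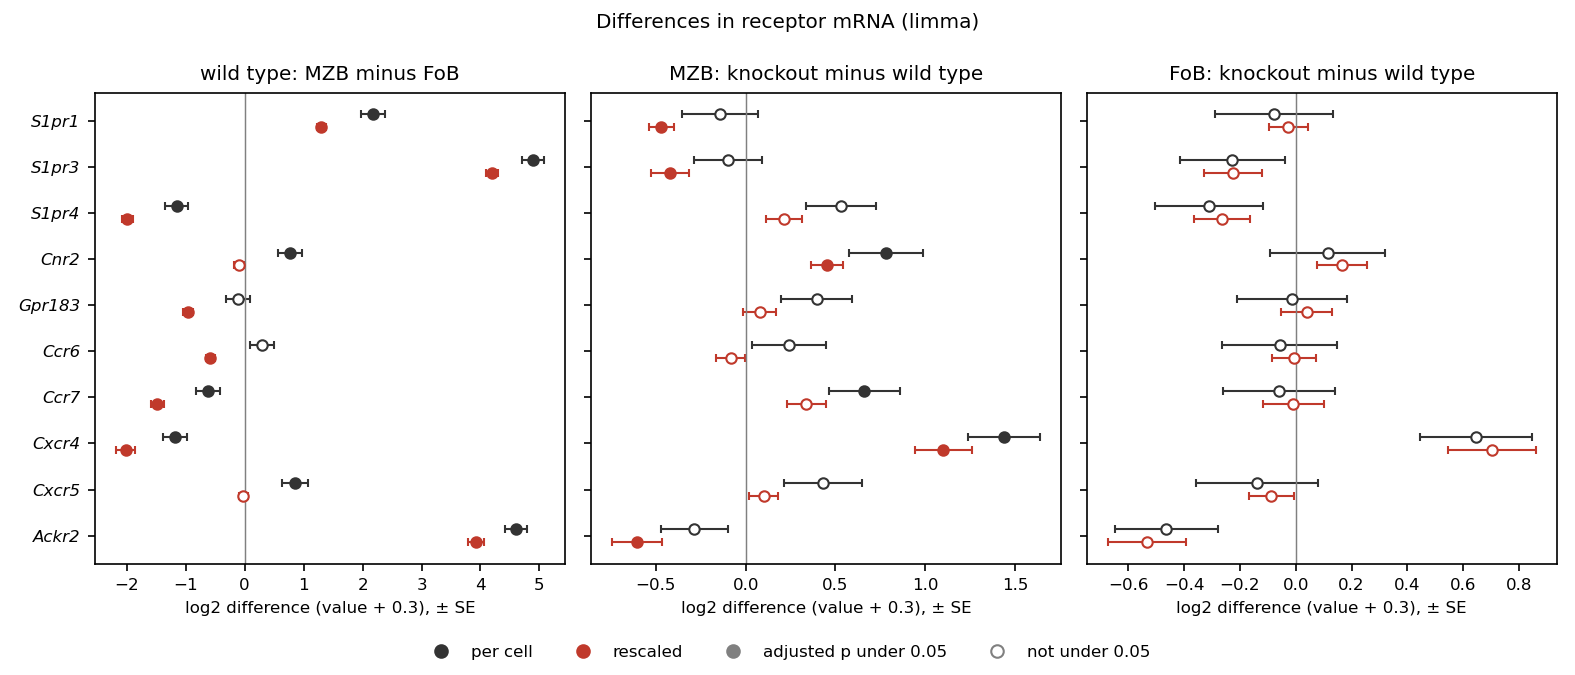
Differences on the log2(value + 0.3) scale with SE for the 10 receptors, per cell (dark) and rescaled (red), in 3 comparisons whose horizontal axes differ in range; filled points passed an adjusted p of 0.05 in limma. S1pr3 and Ackr2 stand apart in wild-type MZB against FoB, Cxcr4 and Cnr2 pass on both scales in knockout against wild-type MZB, and in FoB 0 of 10 pass.

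RefSeq promoter entries matched 7 of 10 members, and S1pr1, Ccr7 and Cxcr5 had none. Among the members with an entry, those that differed most between the wild-type cell types are shown, 2 MZB-high genes and then 2 FoB-high genes. Each sequence is the 250 bases before the RefSeq gene start (GRCm38.p6, the assembly of mm10). Capitals mark CACCC on either strand (GGGTG where it reads on the other strand), the core that KLF factors such as KLF2 are known to bind.
S1pr3 (chr13:51408368-51408617, plus strand): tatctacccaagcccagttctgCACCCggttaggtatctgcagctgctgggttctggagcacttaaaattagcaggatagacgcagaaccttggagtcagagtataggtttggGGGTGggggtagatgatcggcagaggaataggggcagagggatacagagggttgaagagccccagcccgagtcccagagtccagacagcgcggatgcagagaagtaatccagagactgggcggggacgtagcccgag
Ackr2 (chr9:121898105-121898354, plus strand): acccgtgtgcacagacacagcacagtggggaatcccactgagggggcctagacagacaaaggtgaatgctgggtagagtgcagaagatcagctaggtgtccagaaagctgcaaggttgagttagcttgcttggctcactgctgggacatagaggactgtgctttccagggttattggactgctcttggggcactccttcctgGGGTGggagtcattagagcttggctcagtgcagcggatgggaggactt
S1pr4 (chr10:81500138-81500387, minus strand): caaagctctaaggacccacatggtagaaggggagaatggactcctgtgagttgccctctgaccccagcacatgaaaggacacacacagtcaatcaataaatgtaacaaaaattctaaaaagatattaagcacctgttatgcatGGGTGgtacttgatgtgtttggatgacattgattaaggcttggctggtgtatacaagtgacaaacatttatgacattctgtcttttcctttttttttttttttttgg
Cxcr4 (chr1:128592300-128592549, minus strand): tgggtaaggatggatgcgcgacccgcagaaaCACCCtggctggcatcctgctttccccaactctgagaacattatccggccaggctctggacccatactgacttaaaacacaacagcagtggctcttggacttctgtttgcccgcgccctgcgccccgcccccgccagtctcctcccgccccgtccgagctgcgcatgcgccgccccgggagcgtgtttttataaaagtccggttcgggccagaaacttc

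S1pr3 held 2 matches, at positions -228 and -137 from the start, and Ackr2, S1pr4 and Cxcr4 held 1 each, at -48, -107 and -219. The bases just after the window were found in a transcript of the GENCODE annotation for Ackr2, Gpr183 and Ccr6. They were not found for S1pr3, S1pr4, Cxcr4 and Cnr2, so positions there rest on the RefSeq start alone. MZB-high and FoB-high receptors alike held CACCC, as did 51.3% of 27025 promoters of this length. The letters TGGGAA, the core of the site of RBPJ, through which NOTCH2 acts in MZB, occurred in the windows of 1 member (Gpr183) and of 21.5% of all promoters. AAATCA, the core of the site of GFI1, a repressor that recruits LSD1, occurred in those of Gpr183 and Ccr6 and of 12.7% of all promoters. Among the 7753 promoters of genes in the table, from which the members were taken, the shares were 55.4% for CACCC, 20.1% for TGGGAA and 7.49% for AAATCA. Cnr2 held 0 of these 3 motifs, each searched on both strands with no overlap between them. The windows also differed in base composition, with 61.2% G and C and 19 CpG in Cxcr4 against 38.8% and 0 CpG in S1pr4, around a median of 52.0% over all promoters.

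The second comparison sets MZB labelled knockout against wild-type MZB. Per cell, 3 members rose (Cxcr4, Cnr2 and Ccr7) and 0 fell, where limma called 14% of all genes, 13.3% as higher and 0.702% as lower. Rescaled, 2 rose (Cxcr4 and Cnr2) and 3 fell (S1pr1, S1pr3 and Ackr2), where 5.25% of all genes were called, 3.38% as higher and 1.87% as lower. At an unadjusted p under 0.05 the counts were 5 and 6 of 10, against 38.7% and 22.9% of genes.

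Cxcr4 changed most. In knockout MZB its mRNA numbered 10.3 and 15.0 molecules per cell, against 4.15 to 4.58 in the 3 wild-type libraries, from 314 and 498 reads against 160 to 213. Both knockout libraries stood well above all 3 wild-type libraries and per cell, within or above the range of wild-type FoB (9.09 and 11.7). Rescaled, knockout MZB (mean 7.59) did not reach that range and stood at 52.3% of the wild-type FoB mean of 14.5, with no overlap between libraries. The log2 difference was 1.44 ± 0.20 (SE, limma adjusted p = 4.52e-08) per cell and 1.10 ± 0.16 (limma adjusted p = 0.00383) rescaled. Leaving out each library in turn kept the per-cell call in 10 of 10 fits; without knockout MZB replicate 2 the rescaled adjusted p was 0.0665, with a range from 0.00083 over the other libraries left out.

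Cnr2 stood at 35.2 and 40.2 molecules per cell in knockout MZB, above the 18.0 to 25.0 of wild-type MZB. It rose by a log2 difference of 0.78 ± 0.21 (SE, limma adjusted p = 0.00629) per cell and 0.45 ± 0.09 (limma adjusted p = 0.0176) rescaled, and knockout MZB had the highest mean of the 4 groups on both scales. Ccr7 stood at 12.6 and 14.9 in knockout MZB, again above all wild-type MZB libraries (7.14 to 9.61), and rose per cell by 0.66 ± 0.20 (log2, SE, limma adjusted p = 0.0191). Rescaled, the difference of 0.34 ± 0.11 did not pass (limma adjusted p = 0.0995). Both per-cell calls were lost without knockout MZB replicate 2 or without wild-type MZB replicate 1.

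The 3 receptors that mark MZB on both scales gave another picture. S1pr1 had 69.6 and 80.9 molecules per cell in knockout MZB, overlapping the wild-type values, with a log2 difference of -0.14 ± 0.21 (SE, limma adjusted p = 0.584). Rescaled, the knockout libraries held 45.1 and 45.9 and the wild-type libraries 62.9, 65.1 and 61.6. On that scale the groups were tight and apart, at 72.0% of the wild-type level (log2 -0.47 ± 0.07, SE, limma adjusted p = 0.00435).

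Ackr2 stood at 11.3 and 14.2 molecules per cell in knockout MZB, just below the lowest wild-type library at 14.3, and did not pass per cell (log2 -0.29 ± 0.19, SE, limma adjusted p = 0.219). Rescaled, it stood at 7.29 and 8.08 against 13.1, 9.69 and 13.0, or 64.4% of the wild-type level (log2 -0.60 ± 0.14, limma adjusted p = 0.0357). S1pr3 stood at 19.5 and 21.4 molecules per cell in knockout MZB, within the wild-type range (log2 -0.10 ± 0.19, SE, limma adjusted p = 0.672). Rescaled, its 12.6 and 12.1 lay below the wild-type values of 16.8, 14.7 and 18.8 (log2 -0.42 ± 0.10, limma adjusted p = 0.0429). Without knockout MZB replicate 2, 0 of the 5 rescaled calls in MZB remained in limma, with adjusted p of 0.0592 for S1pr1. Those of Ackr2, Cnr2 and S1pr3 were also lost without knockout MZB replicate 1 or wild-type MZB replicate 1, those of Ackr2 and S1pr3 without wild-type MZB replicate 3, and that of S1pr3 without either wild-type FoB library.

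S1pr4, Cxcr5, Gpr183 and Ccr6 passed on neither scale in MZB. S1pr4 came closest, with 4.92 and 6.11 molecules per cell in knockout against 2.89 to 4.21 in wild-type MZB. Its log2 difference of 0.53 ± 0.19 (SE) missed the threshold (limma adjusted p = 0.0513, 0.227 rescaled), and it passed in 5 of the 10 fits that each left out 1 library. Cxcr5 held 79.3 and 102.8 molecules per cell against 54.0 to 77.7, a log2 difference of 0.43 ± 0.22 (SE, limma adjusted p = 0.131), and 0.10 ± 0.08 rescaled. Gpr183 and Ccr6 overlapped between genotypes on both scales, with rescaled log2 differences of 0.08 ± 0.09 and -0.08 ± 0.08 (SE, limma adjusted p = 0.651 and 0.564).

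**Figure D3:**
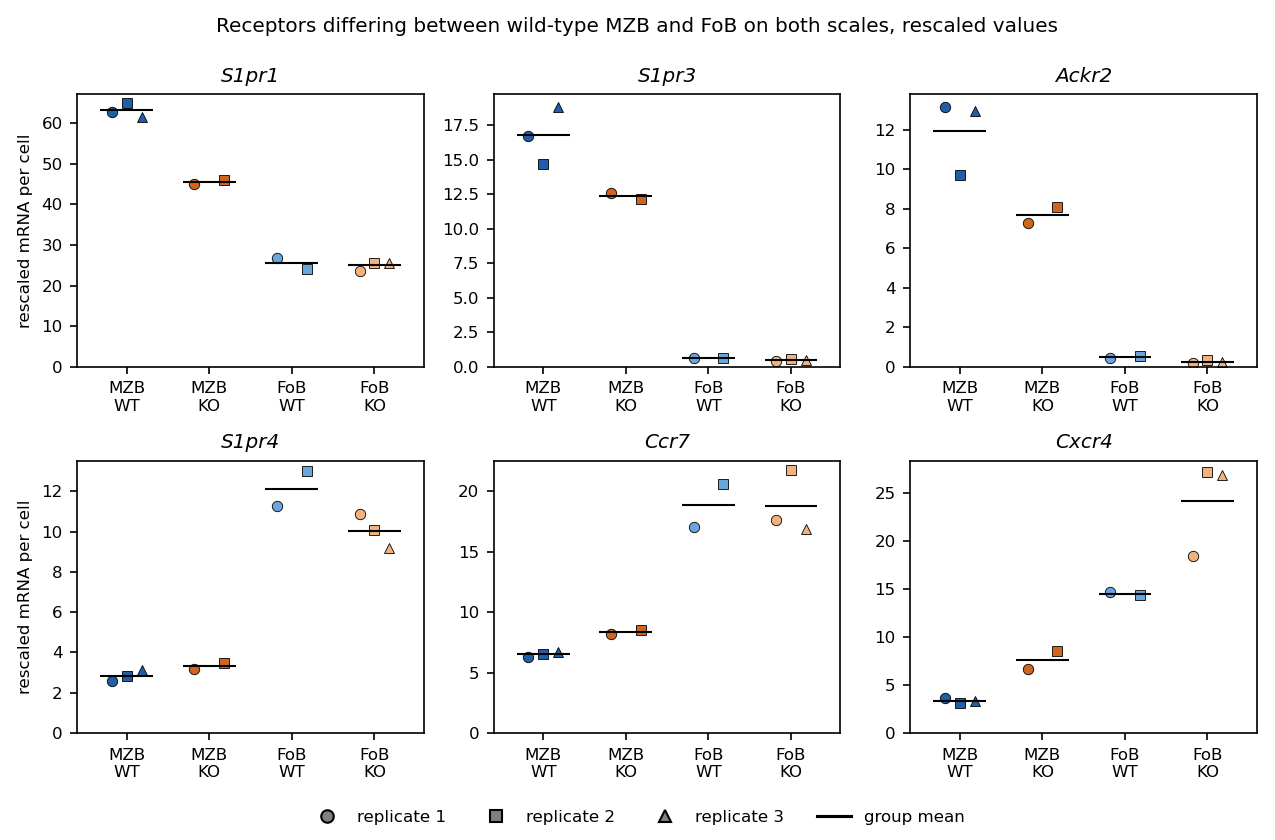
Rescaled mRNA per cell in each library for the 6 receptors that differed between wild-type MZB and FoB on both scales; symbols give the replicate number and bars the group means, and axes start at 0. In each panel the knockout MZB mean lies between the wild-type MZB and the wild-type FoB mean, and the test of knockout against wild-type MZB passed for S1pr1, S1pr3, Ackr2 and Cxcr4. Among the receptors not shown, Cnr2, Cxcr5 and Ccr6 did not have this order.

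Set beside wild-type FoB, the knockout MZB levels lay at different distances from FoB for different receptors. Both comparisons use the wild-type MZB libraries, so the values are only set side by side. Rescaled, S1pr3 stood at 16.8 in wild-type MZB, 12.4 in knockout MZB and 0.627 in wild-type FoB, and Ackr2 at 11.9, 7.69 and 0.498. S1pr1 stood at 63.2, 45.5 and 25.5, and Cxcr4 at 3.36, 7.59 and 14.5. S1pr4 stood at 2.83, 3.33 and 12.1, and Ccr7 at 6.52, 8.32 and 18.8, with knockout MZB below wild-type FoB for both. Per cell, knockout MZB stood closer to FoB for some of these. Ccr7 had 8.63, 13.8 and 13.3 molecules in these 3 groups, with knockout MZB overlapping wild-type FoB, and S1pr4 had 3.76, 5.51 and 8.61. Cxcr4 had 4.40, 12.6 and 10.4 per cell, and S1pr1 83.5, 75.2 and 18.3. S1pr3 and Ackr2 in knockout MZB stayed above wild-type FoB per cell, at 20.4 against 0.451 and 12.7 against 0.353.

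The follicular markers Fcer2a, which encodes CD23, Itgb7 and Klf2 rose on both scales in knockout MZB. Rescaled, the sum of these 3 was 14.5 to 19.5 in wild-type MZB, 35.7 to 37.0 in knockout MZB, and 186.5 to 192.7 in wild-type FoB. Fcer2a is the largest part of this sum, with per-cell means of 13.3, 33.7 and 93.7 in these groups. Because the cells were sorted on CD23, Fcer2a gives no independent check of identity. Itgb7 had per-cell means of 4.74, 17.4 and 15.6, and Klf2 of 4.43, 9.01 and 26.7. The MZB markers summed, rescaled, to 370.5 to 405.8 in wild-type and 324.7 to 337.5 in knockout MZB. On that scale 1 of the 6, Cr2, passed as lower (limma adjusted p = 0.0318). Per cell the sums overlapped, at 447.6 to 550.3 in wild-type and 520.8 to 571.8 in knockout MZB, and 0 of the 6 passed. Of 4 transitional B cell markers, 3 were in the table (Cd93, Sox4 and Vpreb3), with rescaled sums of 5.29 to 8.60 in wild-type and 10.4 to 12.2 in knockout MZB. Vpreb3 was by far the largest part, with per-cell means of 8.25 in wild-type and 16.1 in knockout MZB. It did not pass rescaled (limma adjusted p = 0.0571), whereas the low Cd93 and Sox4 did (limma adjusted p = 0.0078 and 0.0119). CD93 was among the proteins excluded in both sorts. The part of these markers in the receptor changes was not tested.

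Markers of other lineages and of other B cell stages were few. In the table were 1 of 7 T cell markers (Lck), 2 of 6 macrophage and monocyte markers (Cd68 and Ly6c2), 1 of 4 dendritic cell markers (Flt3), 2 of 4 plasma cell markers (Xbp1 and Irf4) and 1 of 4 germinal centre markers (Bcl6), and 0 of the neutrophil, NK, erythroid, platelet and endothelial markers. Per cell, the macrophage pair summed to 2.25 to 4.07 in wild-type and 6.21 to 8.61 in knockout MZB, with the rise in Ly6c2. Flt3 went from 0.261 to 0.441 in wild-type MZB to 1.92 to 2.33 in knockout MZB, and Lck from 3.80 to 4.54 to 7.39 to 8.09. Bcl6 was at 2.60 to 3.05 in wild-type MZB, 5.12 to 5.75 in knockout MZB and 7.18 to 10.6 in wild-type FoB. Ly6c2, Flt3, Lck and Bcl6 passed as higher in knockout MZB on both scales. The plasma cell pair turned with the scale, from 30.7 to 38.5 in wild-type to 38.6 to 45.0 in knockout MZB per cell, and from 26.2 to 27.1 to 25.0 to 25.5 rescaled. In FoB too, Ly6c2 rose with the knockout, from a mean of 0.514 to 2.60 molecules per cell (limma adjusted p = 7.47e-11 per cell and 0.00671 rescaled). Flt3 rose from 0.0919 to 0.423 there (limma adjusted p = 0.00273 and 0.0020). The part of these markers in the receptor changes of either cell type was not tested.

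The third comparison asks the same in FoB. Here 0 of 10 members passed in limma on either scale, where 0.712% of all genes passed per cell and 0.599% rescaled. At an unadjusted p under 0.05 there were 2 members per cell and 3 rescaled (3.85% and 14.6% of genes), and limma voom on the recovered reads called 1, Cxcr4, and 1.08% of genes. Cxcr4 stood at 12.5, 20.7 and 16.8 molecules per cell in knockout FoB and 11.7 and 9.09 in wild-type FoB. All 3 knockout libraries lay above both wild-type libraries, replicate 1 only narrowly. The log2 difference was 0.65 ± 0.20 (SE, limma adjusted p = 0.163) per cell and 0.70 ± 0.16 (limma adjusted p = 0.0891) rescaled, and 0.72 ± 0.13 by voom (adjusted p = 0.00541). Without knockout FoB replicate 1 it passed on both scales, with limma adjusted p of 0.0446 and 0.00748 against a range up to 0.789 and 0.409 over the other libraries left out. The markers Ly6c2 and Flt3 were higher in the same knockout FoB libraries, as given above.

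The receptors that are low in FoB stayed low. Ackr2 stood at 0.130, 0.241 and 0.157 molecules per cell in knockout FoB and at 0.363 and 0.343 in wild-type FoB, from 11, 24 and 20 reads against 38 and 38. The knockout libraries lay below the wild-type ones, at 49.9% of their mean, but the test did not pass (log2 -0.46 ± 0.19, SE, limma adjusted p = 0.709, and 0.166 rescaled). S1pr3 stood at 0.294, 0.417 and 0.311 against 0.520 and 0.382, which overlapped per cell (limma adjusted p = 1.0, and 0.35 rescaled). S1pr4 stood at 7.37, 7.68 and 5.74 in knockout FoB, below the 8.98 and 8.24 of wild-type FoB, with a log2 difference of -0.31 ± 0.19 per cell and -0.26 ± 0.10 rescaled (SE, limma adjusted p = 1.0 and 0.283). For S1pr1, Cnr2, Gpr183, Ccr6, Ccr7 and Cxcr5 the knockout and wild-type FoB libraries overlapped on both scales, with rescaled log2 differences between -0.09 and 0.17.

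The last test asks whether the knockout effect differed between MZB and FoB. In limma, 0 of 10 members passed on either scale, where 2.34% of all genes passed per cell and 0.31% rescaled. At an unadjusted p under 0.05 there were 4 members on each scale (27.5% and 22.8% of genes), and voom called 1, S1pr1, and 6.33% of genes. S1pr1 had a rescaled difference between effects of -0.44 ± 0.10 (log2, SE, limma adjusted p = 0.0723), and by voom -0.45 ± 0.10 (adjusted p = 0.0206). S1pr4, which was higher in both knockout MZB libraries and lower in all 3 knockout FoB libraries than in their wild-type counterparts, had a difference of 0.84 ± 0.27 per cell (log2, SE, limma adjusted p = 0.0706) and 0.48 ± 0.14 rescaled (limma adjusted p = 0.106). For Cxcr4 it was 0.79 ± 0.28 per cell (limma adjusted p = 0.0966) and 0.40 ± 0.22 rescaled (limma adjusted p = 0.303). Kdm1a itself fell less in MZB than in FoB. Its difference was 0.73 ± 0.27 per cell and 0.41 ± 0.09 rescaled (log2, SE, limma adjusted p = 0.102 and 0.0723). By voom it passed, at 0.43 ± 0.12 (adjusted p = 0.0398). The part of this unequal fall in the receptor differences was not tested. Without knockout FoB replicate 2, Ccr7, Cxcr4 and S1pr4 passed per cell and S1pr1 rescaled; Cxcr4 also passed per cell without knockout MZB replicate 1, and S1pr4 without wild-type MZB replicate 2.

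**Figure D4:**
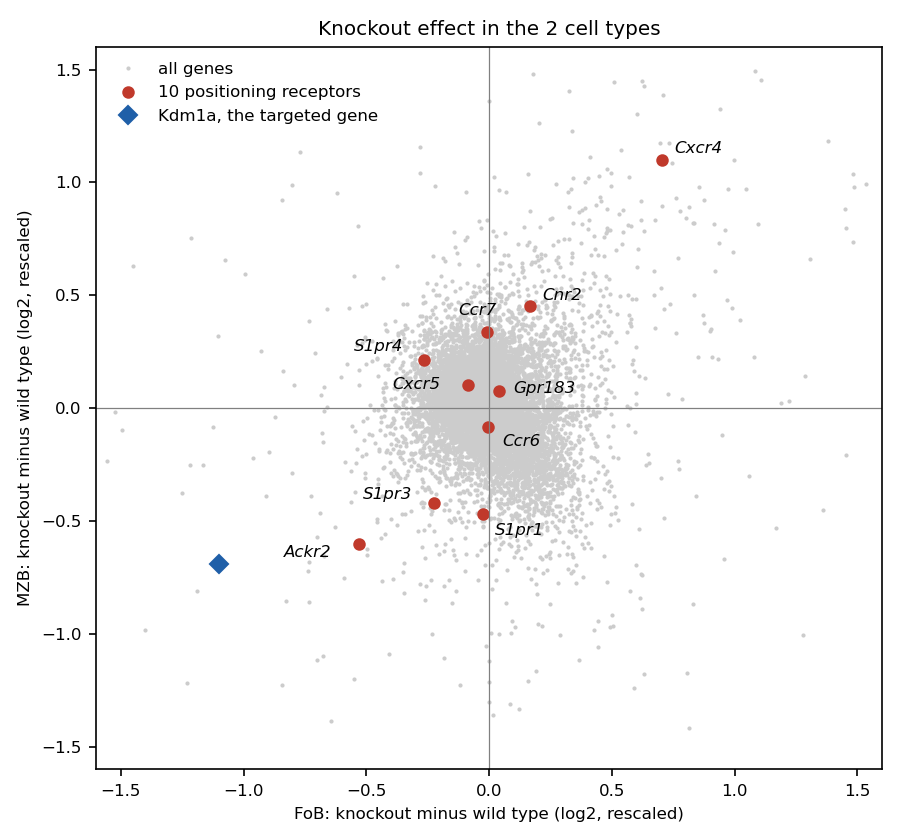
Knockout minus wild type on the rescaled log2 scale in FoB (horizontal) and MZB (vertical) for all genes (grey, 25 outside the plotted range), the 10 receptors (red) and Kdm1a (blue). Cxcr4 lies up and right at 0.70 and 1.10, Ackr2 down and left at -0.53 and -0.60, and S1pr1 is at -0.03 in FoB and -0.47 in MZB.

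Other genes with the same pattern over the 10 libraries were sought by the root mean square (RMS) difference between centred log2 rescaled profiles, as a description. Predicted genes, Riken clones, LOC genes, microRNA genes and small RNA genes were left out of the search. S1pr3 and Ackr2 were among each other's 2 nearest genes of those searched (RMS difference 0.173, against an own RMS of 2.09 and 2.03), together with Myof, a membrane repair protein listed above as an MZB marker. The genes nearest to Cxcr4 were Scimp and Crisp3, at RMS differences of 0.248 and 0.254, beside an own RMS of 1.11. For S1pr1 they were Bzw2 and Pip4k2a, for S1pr4 Sbk1 and Arhgef18, and for Ccr7 Nsmce1 and Rhoh. Cxcr5 varied least, with an own RMS of 0.09 and Ptpn9 and Gapdh as its nearest genes. Cnr2 had Pomp and Scmh1, Gpr183 had Atn1 and Ints4, and Ccr6 had Tmod3 and Cep120.

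The machinery around the receptors was taken from lists chosen with earlier results of these data known. Of 18 G proteins, arrestins and receptor kinases in the table (21 listed), 10 were higher and 0 lower in wild-type MZB per cell, and 4 were higher and 10 lower rescaled, with a median log2 of 0.52 and -0.33 against 0.78 and 0.0 for all genes. Of all genes, 84.2% were called higher and 1.67% lower per cell, and 24.9% higher and 25.1% lower rescaled. Grk3, a kinase that helps switch off activated receptors, had 4.01 ± 0.662 molecules per cell (SD, n = 3) in wild-type MZB and only 0.148 ± 0.0734 (SD, n = 2) in FoB. Its log2 difference was 3.26 ± 0.19 per cell and 2.74 ± 0.17 rescaled (SE, limma adjusted p = 6.80e-29 and 3.29e-07). The FoB level of Grk3 lies below the pseudocount of 0.3, which shrinks this difference. Grk5, another such kinase, and Gng2, a G protein gamma subunit, were also higher on both scales, by 1.38 and 1.21 per cell. In knockout MZB 3 of the 18 rose per cell, where 13.3% of all genes did (medians 0.41 and, for all genes, 0.32). Rescaled, 0 passed in limma in either direction, where 5.25% of all genes did. At an unadjusted p under 0.05 there were 7, against 22.9% of all genes. Limma voom on the recovered reads called 1 higher and 1 lower, and its share over all genes is not given here.

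Of 22 migration effectors in the table (23 listed), 13 were higher and 1 lower in wild-type MZB per cell, and rescaled 0 were higher and 17 lower, with 0 higher by voom as well. Over all genes the shares were 84.2% and 1.67% per cell and 24.9% and 25.1% rescaled, and the list's medians were 0.55 and -0.32 against 0.78 and 0.0. The 1 lower on both scales was Rhoh, a small GTPase of blood cells (log2 -0.48 ± 0.19 per cell, SE, limma adjusted p = 0.0182). In knockout MZB 2 of the 22 rose on both scales, where 3.38% of all genes rose rescaled. Rhoh went from 3.40 ± 0.519 to 5.44 ± 0.481 molecules per cell (SD, n = 3 and 2; limma adjusted p = 0.018 per cell and 0.0463 rescaled). Pik3cg, the lipid kinase activated by G protein beta-gamma subunits, went from 4.88 ± 0.917 to 8.40 ± 1.27 (SD, n = 3 and 2; limma adjusted p = 0.00431 and 0.0183).

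Genes that make or remove the ligands were measured for 9 of 17 listed, and chemokine ligands for 0 of 10. Of the 9, 7 were higher and 1 lower in wild-type MZB per cell, and 4 higher and 2 lower rescaled (medians 1.04 and 0.24, against 0.78 and 0.0 for all genes). The share of all genes called higher was 84.2% per cell and 24.9% rescaled. Plpp3, a phosphatase that breaks down S1P and related lipids, stood at 3.89 ± 0.735 molecules per cell in wild-type MZB and 0.663 ± 0.184 in wild-type FoB (SD, n = 3 and 2; log2 2.12 ± 0.19, SE, limma adjusted p = 4.47e-17). Abhd6 and Faah, hydrolases of endocannabinoids, the ligands of CB2, were higher by 1.57 and 1.28 (log2 per cell). In knockout MZB 1 gene of the 9 rose, where 13.3% of all genes did per cell and 3.38% rescaled. It was Spns2, an S1P exporter, which went from 1.38 ± 0.197 to 2.40 ± 0.379 molecules per cell (SD, n = 3 and 2, limma adjusted p = 0.00879 per cell and 0.0429 rescaled).

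All 10 listed regulators of these receptors were in the table. Klf2, a transcription factor known to activate S1pr1 in lymphocytes, had 4.43 ± 0.902 (SD, n = 3) molecules per cell in wild-type and 9.01 ± 1.96 (SD, n = 2) in knockout MZB. Its FoB levels were 26.7 ± 4.33 (SD, n = 2) for wild type and 22.7 ± 2.98 (SD, n = 3) for knockout. Between the wild-type types, Klf2 was the lower of this pair in MZB (log2 -2.52 ± 0.20 per cell, SE, limma adjusted p = 8.38e-20), and S1pr1 was the higher. In knockout MZB, Klf2 rose on both scales (log2 0.98 ± 0.20 per cell and 0.65 ± 0.08 rescaled, SE, limma adjusted p = 0.000231 and 0.00246). S1pr1 fell rescaled but did not pass per cell (log2 -0.14 ± 0.21, SE, limma adjusted p = 0.584). The part of Klf2 in the levels of S1pr1 was not tested. Of the 10 regulators, 3 rose in knockout MZB per cell and 1, Klf2, rescaled, where 13.3% and 3.38% of all genes did. For Klf2 the difference between knockout effects also passed on both scales (1.21 ± 0.28 per cell and 0.83 ± 0.12 rescaled, log2, SE, limma adjusted p = 0.00703 and 0.0222).

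Of 36 other leukocyte receptors listed, 16 were in the table, 14 of them higher and 0 lower in wild-type MZB per cell, and 7 higher and 4 lower rescaled (medians 0.91 and 0.14, against 0.78 and 0.0 for all genes). Over all genes 84.2% were called higher per cell, and 24.9% higher and 25.1% lower rescaled. Ackr3, the atypical receptor that scavenges CXCL12 and so shares a ligand with CXCR4, had 5.73 ± 0.785 molecules per cell (SD, n = 3) in wild-type MZB against 0.0362 ± 0.0015 (SD, n = 2) in FoB. In knockout MZB Ackr3 fell to 3.90 ± 0.11 (SD, n = 2; log2 -0.51 ± 0.18 per cell and -0.80 ± 0.10 rescaled, SE, limma adjusted p = 0.0476 and 0.00246), while Cxcr4 rose. Ccr1, a receptor for inflammatory CC chemokines, and Gpr34, a receptor for lysophosphatidylserine, were higher in wild-type MZB by 3.23 and 2.78 (log2 per cell).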

How the data were processed

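Poly(A) RNA was made into libraries with a KAPA stranded kit, per the labels' protocols. STAR and mm10 are named per the submitters' processing notes; the sources used here do not give the aligner's version, the counter, the annotation, the gene filter or the conversion to molecules per cell. The deposited table holds, as the authors made it, 1 signal value per gene and library in mRNA per cell, and 9681 of its 9690 genes were matched to symbols in RefSeq's GRCm38.p6.

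Whole reads were recovered by finding, per gene, the step of which all values are multiples (tolerance 0.01 reads, largest deviation 9.6e-06). Rescaling used a trimmed mean of log-ratios (trims 0.3 and 0.05). Differences were tested, two-sided, with limma 3.58.1 (lmFit, eBayes with trend) in R 4.3.3 on log2(value + 0.3) over all genes and all 10 libraries, 1 coefficient per group, Benjamini-Hochberg adjustment over all genes and a threshold of 0.05. A floor of 0.3 in at least 2 libraries removed 0 genes, so 10 of 10 members were tested. The prior degrees of freedom were 86.9 per cell and 4.95 rescaled; an error common to a whole library, such as that of its conversion to molecules, is not pooled as such, and per-cell p-values may be too low. No 2 libraries were identical, and the fits and the read recovery were tested on simulated data. Tables and plots were made in Python 3.11.15 (pandas 2.3.3, matplotlib 3.10.9).

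The members, the lists and the rule for names were chosen with earlier results of these data known. In 3 of the lists (follicular markers, pan-B-cell markers and other leukocyte receptors) 1 gene each is not reported here and was left out of the counts and sums after its values were known. The rule names all members, Kdm1a, up to 3 genes per list and comparison with the smallest adjusted p among those passing on both scales, and the 2 nearest profiles of each member. Predicted genes, Riken clones, LOC genes, microRNA genes and small RNA genes could not be named as nearest profiles. Alternatives were other pseudocounts, floors and scalings, no trend, the compared groups alone, the replicate number as a block, voom on recovered reads, and leaving out each library; alternatives on rescaled values were added after the data were seen.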

Additional observations from a re-analysis of the deposited data

How the results depend on the processing

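The count of members that differed between wild-type MZB and FoB was 8 under all alternatives on both scales. For knockout against wild-type MZB the main counts were 3 per cell and 5 rescaled; per cell it was 1 with the replicate block, 5 with either rescaling and 6 by voom, and 1 to 5 with 1 library left out. On rescaled values, where alternatives were chosen after seeing the data, it was 3 at pseudocount 0.1, 2 with the replicate block and 0 to 6 with 1 library left out. For knockout FoB it was 0, but 1 by voom and 0 to 1 with 1 library left out, on both scales. For the difference between effects it was 0, but 1 by voom, 0 to 3 with 1 library left out, and 0 to 1 rescaled. The replicate block takes the replicate number as a pair. Of 13 same-number pairs, whose correlations ran from -0.19 to 0.19, 3 were over 0.1. Deviations within a group of 2 libraries mirror each other, so these correlations cannot settle whether the numbers pair the libraries. Where a library was left out of a group of 2, the lone library is assumed to vary like the other groups. Signs turned as follows (log2). Between wild-type MZB and FoB, under both rescalings and by voom, Cnr2 had -0.10, Cxcr5 -0.02, Ccr6 -0.58 (voom -0.59) and Kdm1a -0.26 (voom -0.28); with 1 library left out Gpr183 ran from -0.32 to 0.09 and rescaled Cxcr5 from -0.05 to 0.03. In knockout MZB, Ccr6 had -0.08 and -0.09 under the trimmed and median rescaling and -0.09 by voom, and S1pr3 ran from -0.20 to 0.01 with 1 library left out. In knockout FoB, Gpr183 had 0.06 with the replicate block and 0.04 rescaled and by voom, and Ccr6 0.01 with the block. With 1 library left out the FoB ranges were -0.31 to 0.16 for S1pr1, -0.09 to 0.32 for Cnr2, -0.22 to 0.19 for Gpr183, -0.27 to 0.16 for Ccr6, -0.24 to 0.08 for Ccr7 and -0.31 to 0.03 for Cxcr5, and rescaled -0.10 to 0.05 for S1pr1, -0.01 to 0.08 for Gpr183, -0.06 to 0.05 for Ccr6 and -0.14 to 0.13 for Ccr7. For the difference between effects, S1pr3 had -0.20 rescaled and -0.09 by voom, Ccr6 -0.08 in all of these, and Ackr2 -0.07 rescaled and at pseudocount 1; left-out ranges were -0.30 to 0.17 for S1pr1 and -0.01 to 0.26 for S1pr3, and rescaled -0.21 to 0.01 for Ackr2 and -0.03 to 0.13 for Gpr183. The cause of these shifts was not tested.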
